A study of Ovis aries with 13 samples.

Results

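CD3D and CD3E are the delta and epsilon chains of CD3, the signalling module of the T-cell receptor. Probes were chosen as the non-control rows whose gene name, or whose gene by RefSeq transcript number, is CD3D or CD3E. That rule found 4 of the 15008 probes on the array, 2 for each gene, out of 1012 genes with a name. The rule itself uses no measured value, but the CD3 genes were chosen with earlier results of these data known. The tissue was left ventricle of sheep, taken from 6 fetuses at gestational day 142 (2 females and 4 males) and from 7 newborn lambs at postnatal day 1 (4 females and 3 males), with 1 Agilent 1-colour array for each animal. No treatment or genotype is given in the labels, and the groups share the tissue, the freezing and the extraction. The labels give some animals of a group the same number with different letters, without saying whether they are twins. These are fetal 1 and 6, fetal 3 and 5, newborn 1 and 7, and newborn 2, 4 and 5. The p-values therefore measure the spread between these samples, which may not be independent.

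On the surface of a T cell, the receptor chains that bind antigen, alpha with beta or gamma with delta, have very short tails inside the cell and cannot signal alone. They are assembled with CD3 dimers, epsilon with delta and epsilon with gamma, and with a pair of zeta chains, the product of CD247. The kinase LCK phosphorylates motifs in the tails of CD3 and zeta once antigen is bound. Because all mature T cells need CD3 at their surface, CD3D and CD3E transcripts are commonly used to mark T cells in a piece of tissue, where they come with blood or live between the muscle cells. CD3E, CD3D and the CD3 gamma gene lie next to each other in this order in the RefSeq annotation of sheep, between MPZL2 and UBE4A.

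The array reads each gene with 2 probes of 60 bases near the end of its transcript. The sequences are shown because they set how far the probes of a gene are separate measurements. For CD3D the probes start at positions 1047 and 1077 of the transcript and share 30 bases, given in capitals. For CD3E they start at 1085 and 1242, 157 bases apart, and do not overlap. The first 30 bases of each CD3E probe are given in lower case.
CD3D, shared by both probes: TCTTTAGTACCCATTTCCCTGTATAGAAGG
CD3E, brighter probe: gatggtcatttgtagctccatgaatgtgct
CD3E, dimmer probe: tattccacctacctttctctgtttctagct
The CD3D probes thus bind the same stretch of transcript in part, while those of CD3E read separate stretches. Values below are relative levels: each signal was divided by its array's 75th percentile and put on the log2 scale, where a difference of 1 is a doubling. A probe is called well above background on an array when the scanner software marks it so.

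All 4 probes were lower in newborn than in fetal ventricle, and no newborn array reached the lowest fetal array on any of them. On the dimmer probe of each gene that gap was small and lay between spots not well above background. CD3E, by its brighter probe, fell by 2.07 (SE 0.373), which is 4.21-fold, and CD3D by 1.63 (SE 0.281), which is 3.09-fold. The limma fit over 10258 tested probes gave adjusted p-values of 0.00228 and 0.00184. Neither gene is abundant in this tissue: the fetal signals of CD3E lay below the 75th percentile of every array, and most newborn signals of CD3D were too close to background to be marked as above it. In a piece of tissue, fewer T cells and less RNA per T cell cannot be told apart.

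The brighter CD3E probe was well above background on 6 of 6 fetal arrays and 5 of 7 newborn arrays. Its processed signal ran from 35 to 140 units in the fetal group and from 7.02 to 34.9 in the newborn group. As relative levels, the fetal arrays lay at -2.78 at the lowest, -1.71 at the median and -1.18 at the highest, and the newborn arrays at -5.63, -3.76 and -2.98. The fetal arrays thus spread over less than the distance between the group means, and the brightest newborn array, newborn 2, still lay below the dimmest fetal array, fetal 4. The means were -1.83 ± 0.66 (SD, n = 6) and -3.90 ± 0.84 (SD, n = 7). With each dim newborn spot raised to the lowest signal well above background on its array, the probe was 3.8-fold lower.

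Within the fetal group, fetal 3, fetal 5 and fetal 6 were high in CD3E, at -1.18, -1.31 and -1.28, and fetal 1, fetal 2 and fetal 4 were lower, at -2.10, -2.29 and -2.78. Fetal 3 and fetal 5 carry the same animal number, and their values lay close together. Fetal 1 and fetal 6, which also share a number, lay on opposite sides of the group median. In the newborn group, 6 of 7 arrays lay between -4.02 and -2.98, and newborn 3 lay apart at -5.63. Its signal of 7.02 units came with an error of 3.38 in the scanner's own estimate, and it was not well above background. Without newborn 3 the change in CD3E was -1.78, with an adjusted p of 0.00144 in the same fit.

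The dimmer CD3E probe fell by 2.14 (SE 0.378, adjusted p 0.00211 in limma). It was well above background on 5 fetal arrays and on 1 newborn array, newborn 7, so the size rests on newborn signals near background, and with dim spots raised as above it was 2.34-fold lower. Fetal arrays lay at -4.34 at the lowest, -3.13 at the median and -2.62 at the highest, and newborn arrays at -6.86, -5.52 and -4.44. The lowest fetal spot, on fetal 4 (11.9 units), and the highest newborn spot, on newborn 2 (12.7 units), were both not well above background. Fetal 4 was again the lowest of its group and fetal 3 the highest, while the lowest newborn array was newborn 5 rather than newborn 3. The order of the newborn arrays therefore differed between the probes of 1 gene where the signals were close to background.

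For CD3D, the brighter probe was well above background on 5 of 6 fetal and 2 of 7 newborn arrays, with signals of 14.8 to 58.8 units in the fetal and 3.89 to 11.6 in the newborn group. Fetal arrays lay at -4.02 at the lowest, -3.44 at the median and -2.47 at the highest, and newborn arrays at -5.82, -5.02 and -4.49. The groups did not overlap, and fetal 6 was the highest array. The means were -3.39 ± 0.64 (SD, n = 6) and -5.01 ± 0.50 (SD, n = 7). Because 5 of 7 newborn spots were dim, the size of this fall rests on signals near background, and with those spots raised to the lowest signal well above background it was 2.18-fold.

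The dimmer CD3D probe was well above background on 4 fetal and on no newborn arrays, so it entered no test. Its fetal arrays lay at -5.13 at the lowest, -3.83 at the median and -2.96 at the highest, and its newborn arrays at -6.74, -5.79 and -5.18. The lowest fetal array here, fetal 1, lay only just above the highest newborn array. Since no newborn array measured it above background, its difference is given as a bound, at least 1.51-fold lower. For that bound, newborn values under the lowest signal well above background on their array were raised to it. Fetal values were kept as measured, although fetal 1 and fetal 4 were not well above background either, so the bound depends on them.

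**Figure D1:**
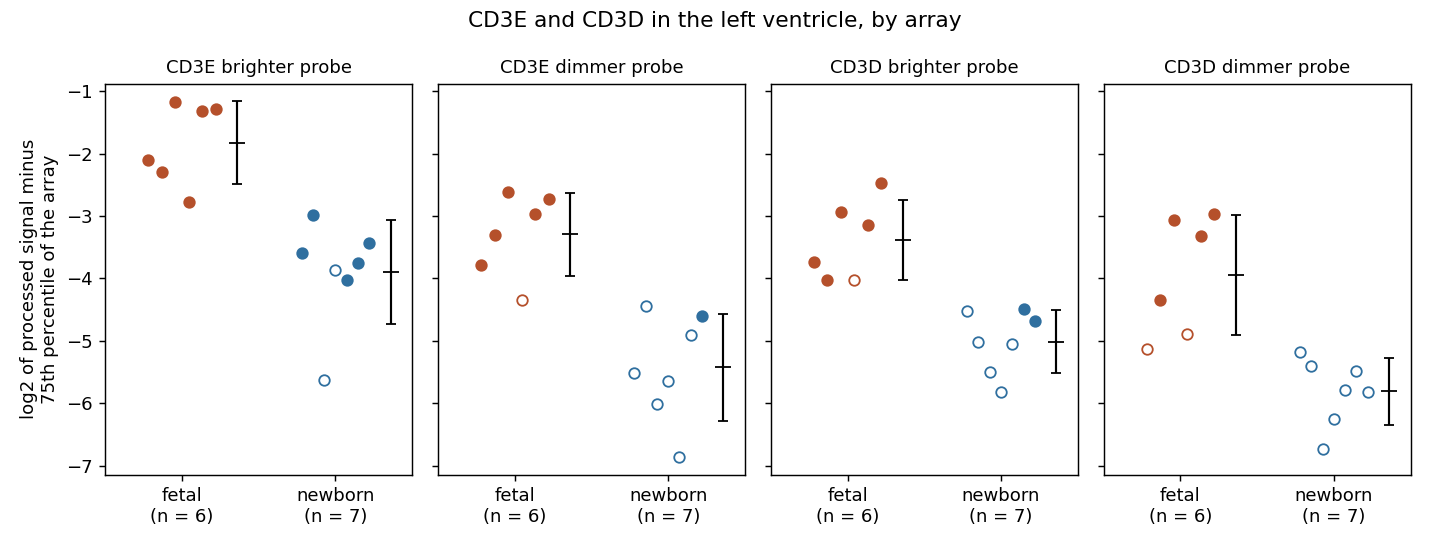
Relative level (log2 scale, signal over the array's 75th percentile, vertical axis) of each CD3E and CD3D probe on the 6 fetal and 7 newborn arrays. Filled points are well above background and open points are not, and the bar is the mean with the SD. On each of the 4 probes all newborn points lie below the lowest fetal point, and most newborn points of the dimmer probes are open.

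Across the array, 2367 of the 10258 tested probes, or 23.1%, passed for age at an adjusted p under 0.05, of which 1139 (11.1%) were lower in newborns and 1228 (12%) higher. All 3 tested CD3 probes, both of CD3E and the brighter of CD3D, were among the lower ones. Of 370 tested probes well above background on all fetal arrays and under 7 newborn arrays, as the brighter CD3E probe was, 86 passed as lower. The dimmer CD3E probe (5 fetal and 1 newborn array) and the brighter CD3D probe (5 and 2) entered the test mainly through fetal arrays. The groups were fully separated, with every newborn array below every fetal array, on 360 tested probes (3.51%), and that held for the 3 tested CD3 probes too. The median change over all tested probes was 0.03.

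**Figure D2:**
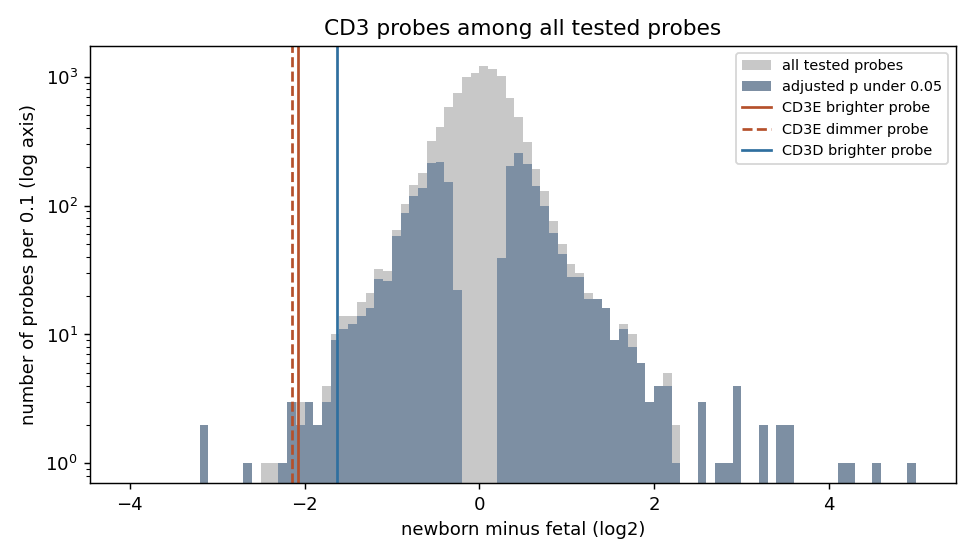
Number of probes (vertical log axis) by newborn minus fetal change (log2, horizontal axis) for the 10258 tested probes in grey and the 2367 that passed in blue-grey. The lines mark CD3E at -2.07 and -2.14 and CD3D at -1.63, in the sparse left tail.

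The arrays lay on a pair of slides, each with both groups. With slide as a block the changes were -2.20 for CD3E and -1.72 for CD3D, with adjusted p-values of 0.0026 and 0.00211 in limma. Within slide 1, with 4 fetal and 3 newborn arrays, they were -1.98 and -1.35, with adjusted p-values of 0.1 and 0.0571. Within slide 2, with 2 fetal and 4 newborn arrays, they were -2.47 and -2.20, with adjusted p-values of 0.0107 and 0.0905. So the fall had the same direction on each slide, and of the 4 values within a slide only that of CD3E on slide 2 passed.

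The background correction mattered more. With normexp correction of the mean signal, which adds an offset of 50, against the background of each spot, the changes shrank to -0.66 for CD3E and -0.29 for CD3D and neither passed (adjusted p 0.48 and 1 in limma). That setting passed 48 probes in all. Against the median background of the array they were -0.76 (adjusted p 0.00288) and -0.30 (adjusted p 0.053), so CD3D missed the threshold there too. With an offset of 10 they were -1.28 and -0.70 and both passed. An offset added to signals of this size makes a log2 difference smaller. At the same offset of 50, CD3E passed against the array's median background and not against each spot's background. The reason for that was not tested.

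**Figure D3:**
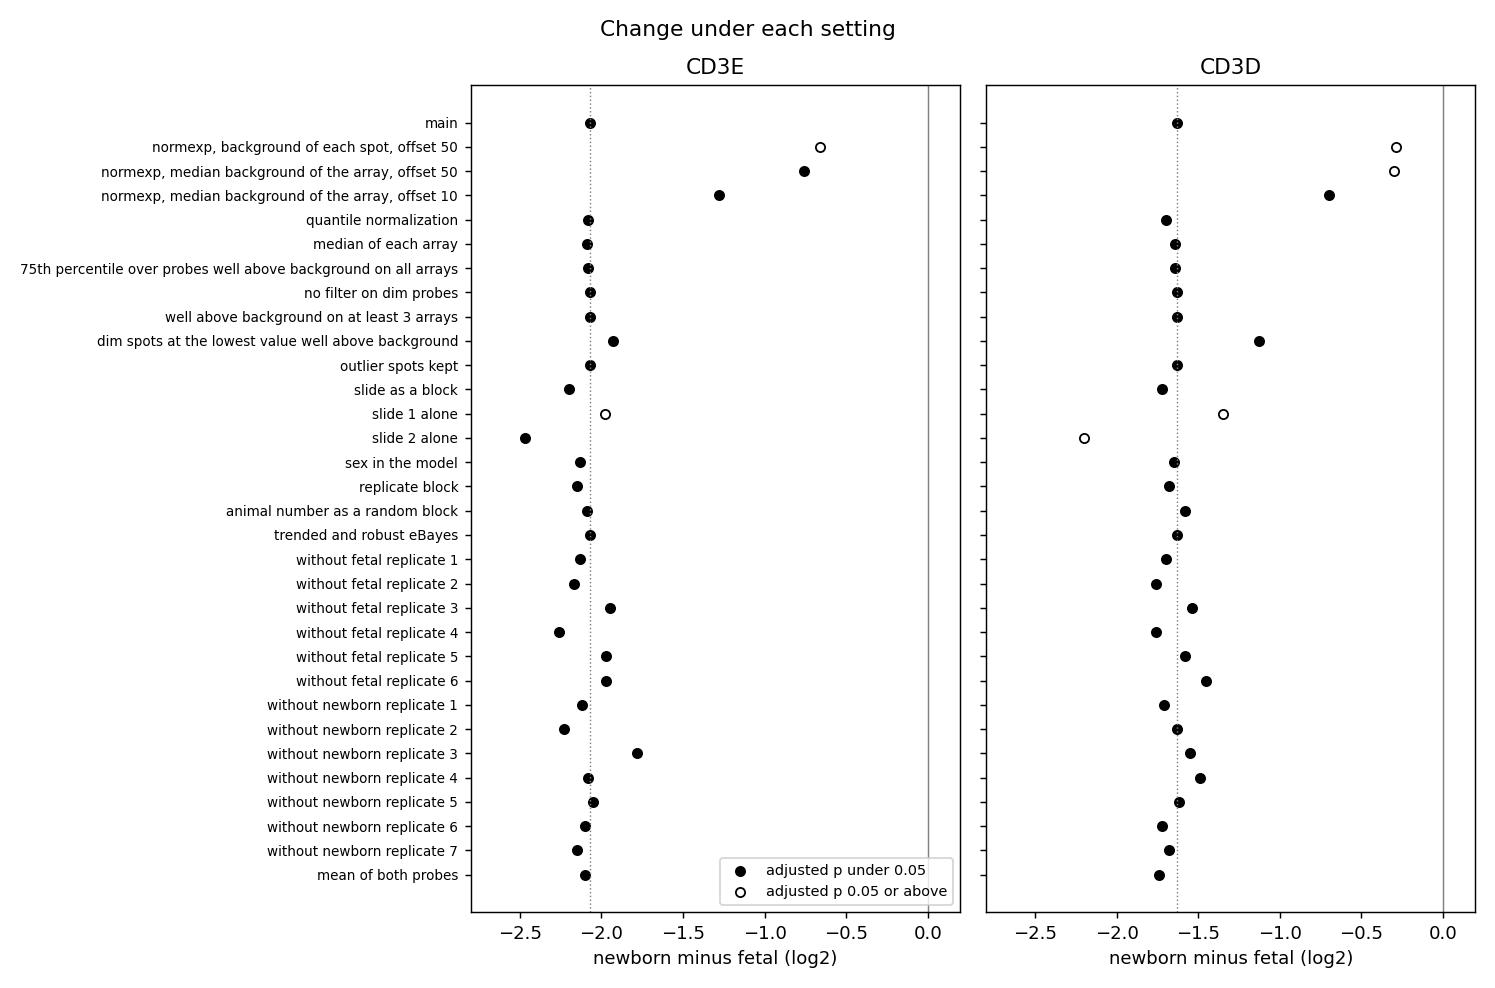
Newborn minus fetal change (log2, horizontal axis) of CD3E and CD3D by their brighter probes under each setting, with the main value as a dotted line. Filled points have an adjusted p under 0.05. All points lie below 0, those with normexp correction lie nearest to 0, and the open points are those with normexp correction or within a slide.

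Sex was compared at equal age. In males CD3E differed from females by -0.25 (SE 0.392, adjusted p 0.999 in limma) and CD3D by -0.08 (SE 0.299, adjusted p 0.999), where 1 probe of the array (0.00975%) passed and 331 had an unadjusted p under 0.05. Fetal means of CD3E were -1.79 in 2 females and -1.85 in 4 males, and newborn means were -3.73 in 4 females and -4.13 in 3 males. In each sex the newborn mean was thus the lower. The interaction of age and sex was -0.34 (SE 0.819, adjusted p 0.991) for CD3E and 0.22 (SE 0.625, adjusted p 0.993) for CD3D, with standard errors wide enough that a difference of a doubling between the sexes could not be detected. No probe of the array passed for the interaction in limma (0%), and 507 had an unadjusted p under 0.05.

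The chains were also compared with each other between animals of the same age, to see whether an animal high in CD3E was high in CD3D. Among the 6 fetal arrays the brighter probes had a Pearson r of 0.91 and a Spearman rho of 0.94, with exact permutation p-values of 0.0236 and 0.0167. Adjusted over both groups these were 0.0472 and 0.0334. Fetal 3, fetal 5 and fetal 6 were the highest in both genes, and r was 0.84 without fetal 4 and fetal 2, the arrays farthest from the median of CD3E. Fetal 3, fetal 5 and fetal 6 also had the most probes well above background of the fetal arrays. The part of this in the correlation was not tested. Fetal 3 and fetal 5 share an animal number, so the 6 arrays may be fewer than 6 independent animals. With normexp correction against the array's median background r was 0.77 among fetal and 0.79 among newborn arrays (exact permutation, adjusted p 0.0575 for each). Among the 7 newborn arrays, where most CD3D signals were dim, r was 0.47 and rho 0.54 (exact permutation p 0.301 and 0.236), and r was 0.53 without newborn 3 and newborn 2. A difference between the groups in this relation was not tested.

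**Figure D4:**
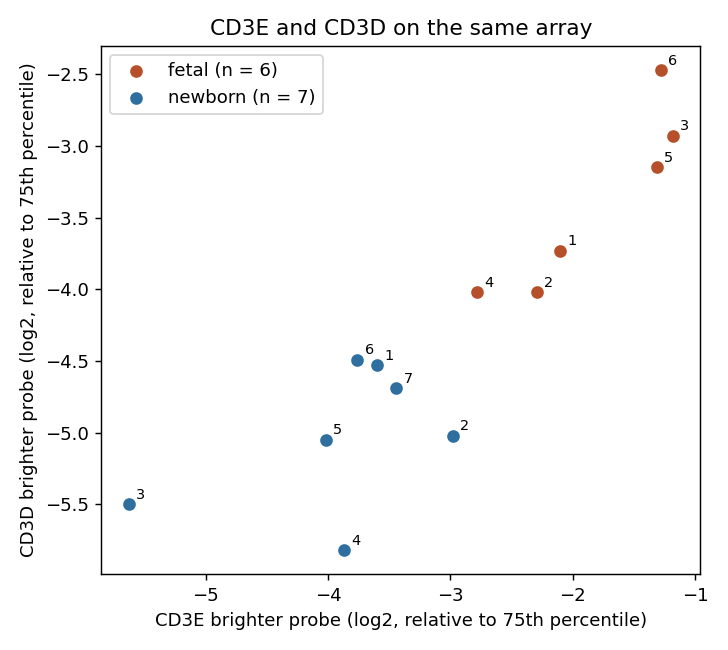
Relative level of CD3D (vertical axis) against CD3E (horizontal axis), both as log2 relative to the 75th percentile and by their brighter probes, with each array's replicate number. The fetal arrays lie along a rising line at the upper right (r 0.91), and the newborn arrays lie to the lower left with newborn 3 at the far end.

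Of the other chains of the complex, CD3 gamma was lower in newborns as well. Its gene is named by the description in the array files, has 1 probe and was well above background on 5 fetal arrays and on no newborn array, so it too entered no test. The signals were 12.1 to 60 units in the fetal and 2.88 to 10.4 in the newborn group. Relative levels ran from -4.31 on fetal 4 to -2.40 on fetal 5, and from -6.92 on newborn 3 to -4.61 on newborn 6. The groups did not overlap, and fetal 4, not well above background, was the lowest fetal array as it was for CD3E. With fetal values as measured, the bound is at least 2.76-fold lower. CD247, the zeta chain, has 2 probes, and neither was well above background on any array.

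Among the chains that bind antigen, the alpha chain of the receptor fell with age. Its probe was well above background on all 13 arrays and fell by 1.60 (SE 0.326, adjusted p 0.00424 in limma), from -0.22 ± 0.55 (SD, n = 6) to -1.82 ± 0.74 (SD, n = 7). Fetal signals were 110 to 395 units and newborn signals 36.6 to 178, and 6 of 7 newborn arrays lay below every fetal array. Fetal 4 was again the lowest fetal array, at -1.13, and newborn 7, at -0.76, overlapped with it. Within slide 1 the change was -1.49 (adjusted p 0.0671) and within slide 2 it was -1.90 (adjusted p 0.156). With normexp correction against each spot's background it was -0.97 (adjusted p 0.123).

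Of 6 probes for the gamma chain 1 was tested and did not pass, and the other 5 were well above background on no array. The tested probe was well above background on all 13 arrays and differed by 0.18 (SE 0.108, adjusted p 0.236 in limma). It ran from -1.93 to -1.57 in fetal and from -1.86 to -1.30 in newborn ventricle. The pair of tested probes for the delta chain differed by 0.25 (SE 0.191, adjusted p 0.348) and -0.26 (SE 0.162, adjusted p 0.256). In all, the array holds 46 probes described as chains of the T-cell receptor, many for single rearranged genes. Of these 4 were tested, of which 1 fell (background 11.1%) and 3 did not pass. Another 36 were well above background on no array, and 6 on 1 to 5 arrays. None of the 15 beta chain probes was tested. T19, a surface protein of gamma-delta T cells in sheep, has 5 probes, of which 2 were tested and 0 passed. The difference in change between the alpha and gamma chains was not tested.

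**Figure D5:**
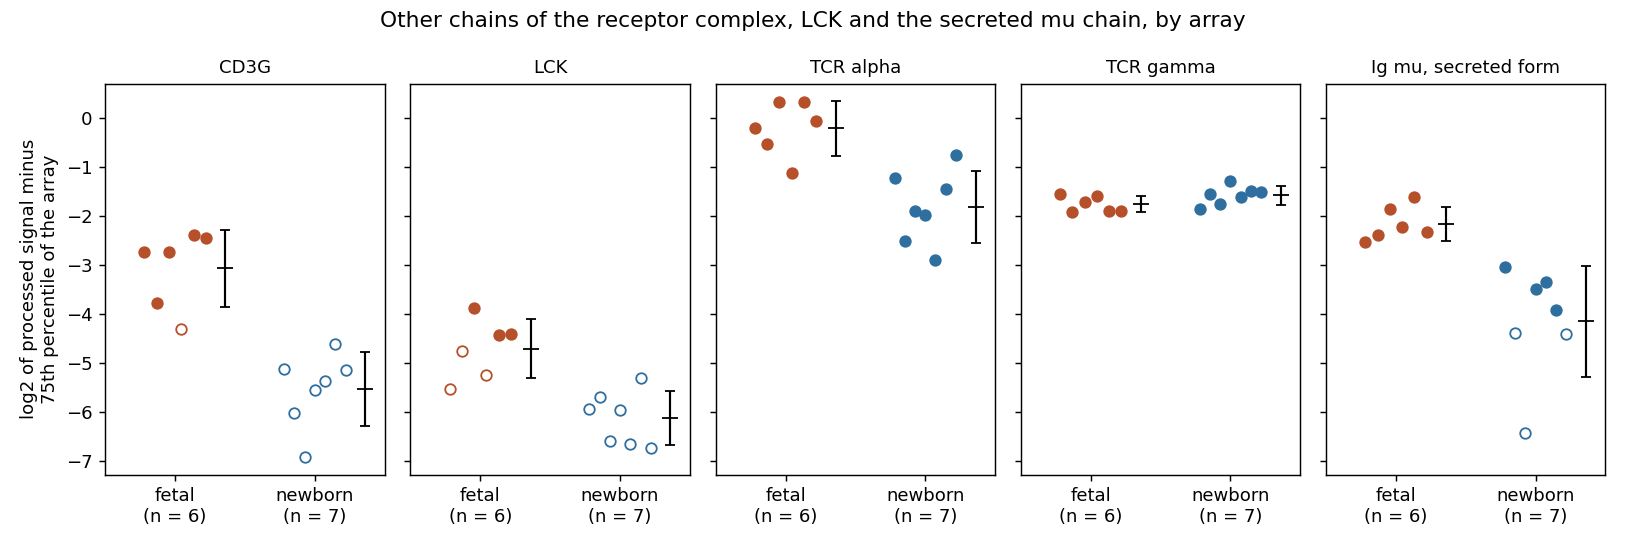
Relative level (log2, vertical axis) of CD3 gamma, LCK, the alpha and gamma chains of the T-cell receptor and the secreted immunoglobulin mu chain on each array, drawn as for the CD3 probes. Fetal and newborn points separate for CD3 gamma and the mu chain and overlap in 1 array for the alpha chain and LCK. They lie at the same height for the 1 tested gamma chain probe.

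Other genes of T cells were read from 6 lists, covering the other receptor chains, signalling, surface molecules, transcription factors, cytokines and cytotoxic proteins, and gamma-delta T cells and thymocytes. Lists were matched to probes by gene symbol, which 1634 of the 15008 probes carry, so a gene without a match may still be on the array. The antigen-binding receptor chains and T19 above, found by their descriptions, are not in this count. CD247 and CD3 gamma, which got its symbol from its description, are in it. Of the 92 genes, 19 were matched to a probe by symbol and 7 of these were tested. Of the 7, 1 was higher in newborns (background 12%), 0 were lower (background 11.1%) and 6 did not pass. Their median change was 0.12 against 0.03 for all tested probes. That median is GNLY, granulysin of cytotoxic cells, by its brightest probe, and its other tested probes, singled out after their values were seen, differed by -0.94 (SE 0.555, adjusted p 0.231 in limma) and -1.59 (SE 0.673, adjusted p 0.0995). Among the surface molecules, CD5, a regulator of receptor signalling, changed by 0.03 (SE 0.343, adjusted p 0.96), CTLA4, an inhibitory receptor, by 0.49 (SE 0.219, adjusted p 0.119) and CXCR4, a chemokine receptor, by 0.38 (SE 0.34, adjusted p 0.429). CD5 was well above background on 3 fetal and 4 newborn arrays, so its level was near the limit in both groups. Without newborn 3, this CTLA4 probe passed as higher in newborns (adjusted p 0.0387 in limma), while its other tested probe differed by -0.01 (adjusted p 0.98).

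CD4, CD28 and CD40LG were not well above background on any array. LCK, the kinase that starts signalling from CD3, was well above background on fetal 3, fetal 5 and fetal 6 and on no newborn array. Its relative level ran from -5.53 to -3.89 in the fetal and from -6.75 to -5.31 in the newborn group, and 6 of 7 newborn arrays lay below every fetal array. The 3 fetal arrays with LCK are those with the most CD3E. They also had the most probes well above background of the fetal arrays. These were 10599, 10375 and 10715 on fetal 3, fetal 5 and fetal 6, against 9751, 10161 and 9410 on fetal 1, fetal 2 and fetal 4. LCK on fetal 2 (13.6 units) was not marked and on fetal 5 (14.1 units) was, so the mark depends on the array. No fold is given because its fetal mean lay below the lowest signal that counts as above background in newborns. The gene of these lists that rose was TNF, a cytokine that macrophages make as well as T cells, by 1.75 (SE 0.364, adjusted p 0.00459 in limma). It was well above background on 2 fetal and 6 newborn arrays, and with dim spots raised to the lowest signal well above background the difference was 1.06 (adjusted p 0.0124).

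Some markers of other cells moved with the CD3 chains. The secreted form of the immunoglobulin mu chain, a product of B-lineage cells, fell by 1.99 (SE 0.423, adjusted p 0.00514 in limma), from -2.17 ± 0.34 (SD, n = 6) to -4.15 ± 1.13 (SD, n = 7), with 7 of 7 newborn arrays below every fetal array. Its lowest array was newborn 3, as for CD3E, and without that array it still passed. A probe for the secreted gamma1 chain went the other way and did not pass (0.37, SE 0.145, adjusted p 0.0788 in limma). Of 11 B-cell genes 1 was matched to a probe by symbol, and it was not tested. Of 9 erythroid genes 2 were matched to a probe by symbol and both fell, against 11.1% of all tested probes: HBB, the beta chain of haemoglobin, by 1.53 (SE 0.335, adjusted p 0.00616) and AHSP, which stabilises free alpha globin, by 1.73 (SE 0.583, adjusted p 0.0447). AHSP no longer passed when any of 9 of the 13 arrays (fetal 2 to 5, newborn 1 to 3, 6 and 7) was left out (adjusted p up to 0.103). The summed level of the pair, as multiples of the 75th percentile, was 53.7 to 258 in fetal and 25.4 to 68.6 in newborn arrays. The part of blood cells in the fall of the CD3 chains was not tested.

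Not all markers of leukocytes fell. Of 12 macrophage and monocyte genes 4 were tested, 3 rose (FCER1G by 0.76, CD14 by 0.66 and FCGR1A by 2.07), against 12% of all tested probes, and 1 did not pass. FCGR1A was well above background on 2 fetal and 7 newborn arrays, and its difference was 1.62 with dim spots raised. Their summed level was 0.736 to 1.1 in fetal and 1.07 to 2.35 in newborn arrays. Of 15 genes of antigen presentation 4 were tested and 3 rose (background 12%). Among them were CD86 by 1.54 and CD40 by 0.99, surface molecules that T cells bind on cells that present antigen. The third was PSMB8, a subunit of the immunoproteasome, by 1.37. CD80, the tested gene that did not pass, differed by -0.23 (SE 0.183, adjusted p 0.383 in limma). Of 5 probes described as MHC class II, which presents antigen, 4 were tested, 0 were higher (background 12%) and 0 lower (background 11.1%). They differed by -0.16 (SE 0.3), -0.4 (SE 1.562), -1.17 (SE 0.527) and -0.1 (SE 0.243). The probe at -0.4 had an SD of 3.25 among fetal and 3.22 among newborn arrays, too wide to show a change of this size. Among 16 signals that attract or hold T cells 2 were tested, of which 1 rose (background 12%). ICAM1 did not pass (0.85, SE 0.347, adjusted p 0.0886 in limma). CXCL10, a chemokine read by CXCR3 on activated T cells, rose by 2.14 (SE 0.609, adjusted p 0.0219 in limma). Its spots were well above background on 4 fetal and 7 newborn arrays, with a newborn SD of 1.6 against a fetal SD of 0.62. In the fit that took the animal's number as a random block it did not pass (2.02, adjusted p 0.0515 in limma). ITGB2, shared by most leukocytes and the 1 tested gene of 14 in its list, did not pass (0.29, SE 0.185, adjusted p 0.263).

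The tissue itself was checked with MB, myoglobin, the 1 gene of 17 cardiomyocyte genes matched to a probe by symbol, which was well above background on all 13 arrays at 8.97 ± 0.18 (SD, n = 6) and 8.62 ± 0.39 (SD, n = 7). Its difference was -0.34 (SE 0.164, adjusted p 0.139). Of 4 tested endothelial genes 3 fell (background 11.1%), PECAM1 by 0.51, KDR by 0.46 and FLT1 by 0.82. KDR no longer passed without fetal 1 or fetal 2 (adjusted p 0.0511 and 0.0503) or in the fit that took the animal's number as a random block (adjusted p 0.0523). No platelet or natural killer cell gene of the lists was matched to a probe by symbol.

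By pattern, 630 named genes were compared with the brighter CD3E probe over the 13 arrays, as a description. The highest correlations were with IGFBP5 (r 0.95), IGF2R (0.90), HSP70.1 (0.89), CD3D (0.89), CTSF (0.87) and LOC443338 (0.85), so CD3D stood in the fourth place. These arrays share the fall between the groups, and all 6 genes were lower in newborns. After each group's mean was taken off, the highest were OVAR-DQA1 (0.85), IGFBP5 (0.83), MHCII-DRB1 (0.77), CD81 (0.76), CXCR4 (0.72) and CTSF (0.72), and CD3D stood at place 21 with 0.65. OVAR-DQA1 and MHCII-DRB1 belong to MHC class II, whose products present antigen to T cells. Neither passed for age (-0.08, adjusted p 0.753, and -0.14, adjusted p 0.736 in limma). Without newborn 3, r was 0.65 for OVAR-DQA1, 0.65 for IGFBP5, 0.59 for MHCII-DRB1, 0.43 for CD81, 0.38 for CXCR4 and 0.33 for CTSF, and 0.69 for CD3D.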

How the data were processed

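Transcripts were measured in left ventricle of 6 fetal and 7 newborn sheep, on 1-colour Agilent arrays. The deposited scanner files hold spot intensities from Agilent Feature Extraction, per the file headers, with background subtracted and signals detrended within the array, and not scaled between arrays. The p-value columns in the deposited files come from the scanner software's test of each spot against background, per the file headers, and only its mark for well above background was used. The authors' deposited log2 table of 7041 probes, with scale and normalization unstated, holds none of the 4 CD3 probes and served as an alternative for other probes. The labels name Cy5 in 1 field and Cy3 in the protocol, and the files hold a single green channel.

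Log2 signals were set against each array's 75th percentile, outlier spots were left out, and probes well above background on at least 6 arrays were tested. Probes were named from the files and, by RefSeq number, from the RefSeq gene table, which gave 1634 probes a single gene name, and the brightest tested probe stood for a gene. The symbol CD3D came through a RefSeq number and CD3 gamma through the description in the file. Groups were fitted in R 4.3.3 with limma 3.58.1 (lmFit, eBayes). Tests were two-sided and p-values adjusted by Benjamini-Hochberg over all tested probes, with a threshold of 0.05. On simulated data with 10142 probes and 50 changed at each size, 1.5-fold falls between newborn and fetal were recovered for 46%. Falls of 3-fold were recovered for 98% and 4-fold falls for 100%, with 11 false calls. The simulated noise was normal and independent between arrays, with no background floor, so it does not cover signals near background or related animals. The number of arrays limits the precision.

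Named were the CD3 probes, list genes that passed or belong to the receptor complex, T-cell signalling or the T-cell surface, and the 6 genes most like CD3E by either measure. Some list genes that did not pass were named beside them. The CD3 genes and the lists were chosen with earlier results of these data known, and probe classes read from the files' descriptions were added after seeing those descriptions. Replicate numbers do not pair the animals: same-numbered fetal and newborn arrays had correlations of -0.07 to 0.05.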

Additional observations from a re-analysis of the deposited data

Results flagged for a closer look

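In 50 groups of arrays looked at, 3 had an array far from the rest, and chance alone marks about 1 group in 20. CD3E on newborn 3 lay at -5.63, with the nearest newborn array at -4.02 and the farthest at -2.98. The secreted immunoglobulin mu chain lay at -6.44 on the same array, with the nearest at -4.41. Neither signal was well above background there. CD40 lay at -1.78 on newborn 7, with the nearest at -2.37.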

How the results depend on the processing

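Under 32 alternatives, CD3E kept its direction with changes of -2.47 to -0.66, and CD3D with -2.20 to -0.29. CD3E did not pass with normexp against each spot's background (-0.66) or within slide 1 (-1.98). CD3D did not pass there (-0.29 and -1.35), with normexp against the array's median background (-0.30) or within slide 2 (-2.20). Leaving out 1 array at a time gave -2.26 to -1.78 for CD3E and -1.76 to -1.45 for CD3D, all of which passed. In the fit that took the animal's number as a random block, CD3E changed by -2.09 and CD3D by -1.58 (adjusted p 0.00462 and 0.005 in limma). The exact permutation test over 1716 splits gave p = 0.000583 for each, the smallest p that these permutations can give. The CD3 probes are not in the authors' table and not well above background on all 13 arrays, so those alternatives gave them no value. The number of probes that passed was 48 with normexp against each spot's background, 356 within slide 1, 23 within slide 2 and 1327 with the replicate block, and 1728 to 3117 with 1 array left out. With the replicate block CD3E changed by -2.15 and CD3D by -1.68 and both passed, 1 of 6 fetal arrays correlated best with its own number, and the samples share only a number. With normexp against the array's median background the correlation was 0.77 in the fetal and 0.79 in the newborn group. CD14 did not pass with the replicate block (0.68, adjusted p 0.0684 in limma).

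Values that never passed changed sign with the setting, and the cause was not tested. The sex difference ranged from -0.51 to 0.15 for CD3E and from -0.30 to 0.19 for CD3D with 1 array left out, and was 0.06 for CD3D with slide as a block. The interaction ranged from -0.91 to 0.42 for CD3E and from -0.55 to 1 for CD3D with 1 array left out, and was -0.12 for CD3D with normexp against the median background. CD5 was -0.07 with normexp against each spot's background, -0.03 with quantile normalization, -0.10 with slide as a block, -0.11 and -0.10 within slides 1 and 2, and -0.15 to 0.24 with 1 array left out. CXCR4 was -0.02 within slide 2. The tested gamma chain probe was -0.03 and a delta chain probe -0.04 within slide 1. The other tested delta chain probe was 0.03 with normexp against the median background. Of the brighter probes, CD3D was well above background on 2 of 7 newborn arrays and CD3E on 5, which limits the precision of their newborn levels.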
